A study of Homo sapiens with 6 samples.

Results

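The windows of 9 genes that p53 switches on, MDM2, GADD45A, BTG2, SESN1, PPM1D, CCNG1, DDB2, XPC and RRM2B, were examined for recovery of chromatin with the long noncoding RNA DINO. Each gene was represented by a fixed hg19 window that was set by its position and not by any measured value, and together the windows spanned 417 kb. The choice of windows was still made with earlier results of these data known. The members were all peaks that shared at least 1 bp with a window. There were 44 such peaks of 314001 on chromosomes 1 to 22 and X in 4 peak lists. In ChIRP-seq, biotinylated oligonucleotides that pair with an RNA draw out the chromatin crosslinked to it, whose DNA is then sequenced. The samples came from U2OS, an established human osteosarcoma line with wild-type p53, and all groups received doxorubicin, a drug that damages DNA, at 0.2 µg/mL for 24 h. No group was without the drug, and no sample is labelled as lacking DINO. The 4 groups analysed were the even probe set on untreated chromatin (105669 peaks), the odd probe set on untreated chromatin (34695), the even set on RNase-treated chromatin (116171) and the odd set on RNase-treated chromatin (57466), each with 1 library. The RNase-treated chromatin controls for DNA that the probes recover without RNA. The 2 input samples were not analysed here, the read depth behind each list is unknown, and no test between libraries was run, since each condition had 1 library.

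The transcription factor p53 is stabilised after DNA damage and binds paired half-sites near its target genes. The targets described here restrain p53 itself, hold the cell cycle or take part in repair. MDM2 is the ubiquitin ligase that marks p53 for destruction, PPM1D (WIP1) is a phosphatase that removes damage-dependent phosphates from p53 and its kinases, and cyclin G1 (CCNG1) is a further negative regulator. GADD45A and BTG2 act in growth arrest, and SESN1 (sestrin 1) restrains mTORC1 signalling under stress. DDB2 and XPC recognise DNA lesions in nucleotide excision repair, and RRM2B supplies the p53-inducible subunit of ribonucleotide reductase. DINO itself is transcribed beside CDKN1A, another p53 target and the gene of p21, which inhibits cyclin-dependent kinases.

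The p53 elements of MDM2 and DDB2 are shown as the matches found at listed starts of the 9 genes. No list had a peak in the stretch of the window where those starts can lie, which was also common in shifted windows and is described with each gene. Promoter sequences of 300 bases (250 before and 50 after each start) were those of RefSeq on GRCh38.p14, and 7 of the 9 genes had 1 or more. They were searched for 2 p53 half-sites of the 10-base consensus with at most 1 base between them and at most 2 departures from the consensus, keeping its fixed C and G. The consensus reads the same on both strands. A match was found in 3 of their 14 promoters, against 187 of all 35116 promoters (0.533%), and these belonged to MDM2 and DDB2. By gene this is 2 of 7, against 184 of 27305 (0.674%). In MDM2 the match lay at chr12:68808923-68808942 on the plus strand, in the intronic promoter, and began 94 and 101 bases before the starts of 2 listed transcripts. In DDB2 it lay at chr11:47214979-47214999 on the plus strand, began 5 bases after a listed start, and overlapped a second match with 1 departure. The printed stretches are chr12:68808903-68808962 and chr11:47214975-47215003, with the half-sites and any base between them in capitals. The MDM2 match had 2 departures and the DDB2 match 0.
MDM2: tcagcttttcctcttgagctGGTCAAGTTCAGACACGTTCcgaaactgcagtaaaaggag
DDB2: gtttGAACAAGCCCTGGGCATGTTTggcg
A match describes these letters and is not by itself a bound site. A gene without a match may hold its element elsewhere. GADD45A and RRM2B had no listed promoter and were not searched, and the element of GADD45A is known to lie in an intron.

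The number of peaks at the 9 genes was near that of their neighbourhood, as given below, and no position was found by both probe sets. The untreated even list had 14 peaks in the windows of 6 genes, and the untreated odd list had 3 peaks in the windows of 3 genes. When every list was shortened to its 34695 strongest peaks the untreated even list also had 3 peaks in 3 windows. With windows widened by 10 kb it had 27 peaks in 9 windows, at 1.17 times the density of shifted windows equally wide. The share of such shifted windows with a peak was not computed. After RNase there were 20 even peaks in 6 windows and 7 odd peaks in 5 windows. Both probe sets had a peak in the same window in 1 case without RNase (DDB2) and in 3 cases with RNase (SESN1, PPM1D and DDB2), at separate positions. No even peak overlapped an odd peak in any window, in either RNase state or across states. Such overlaps were rare in the whole lists as well, at 1.91% of untreated even and 4.65% of untreated odd peaks. The plot of peaks by position shows each gene with the peaks of the 4 lists.

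**Figure D1:**
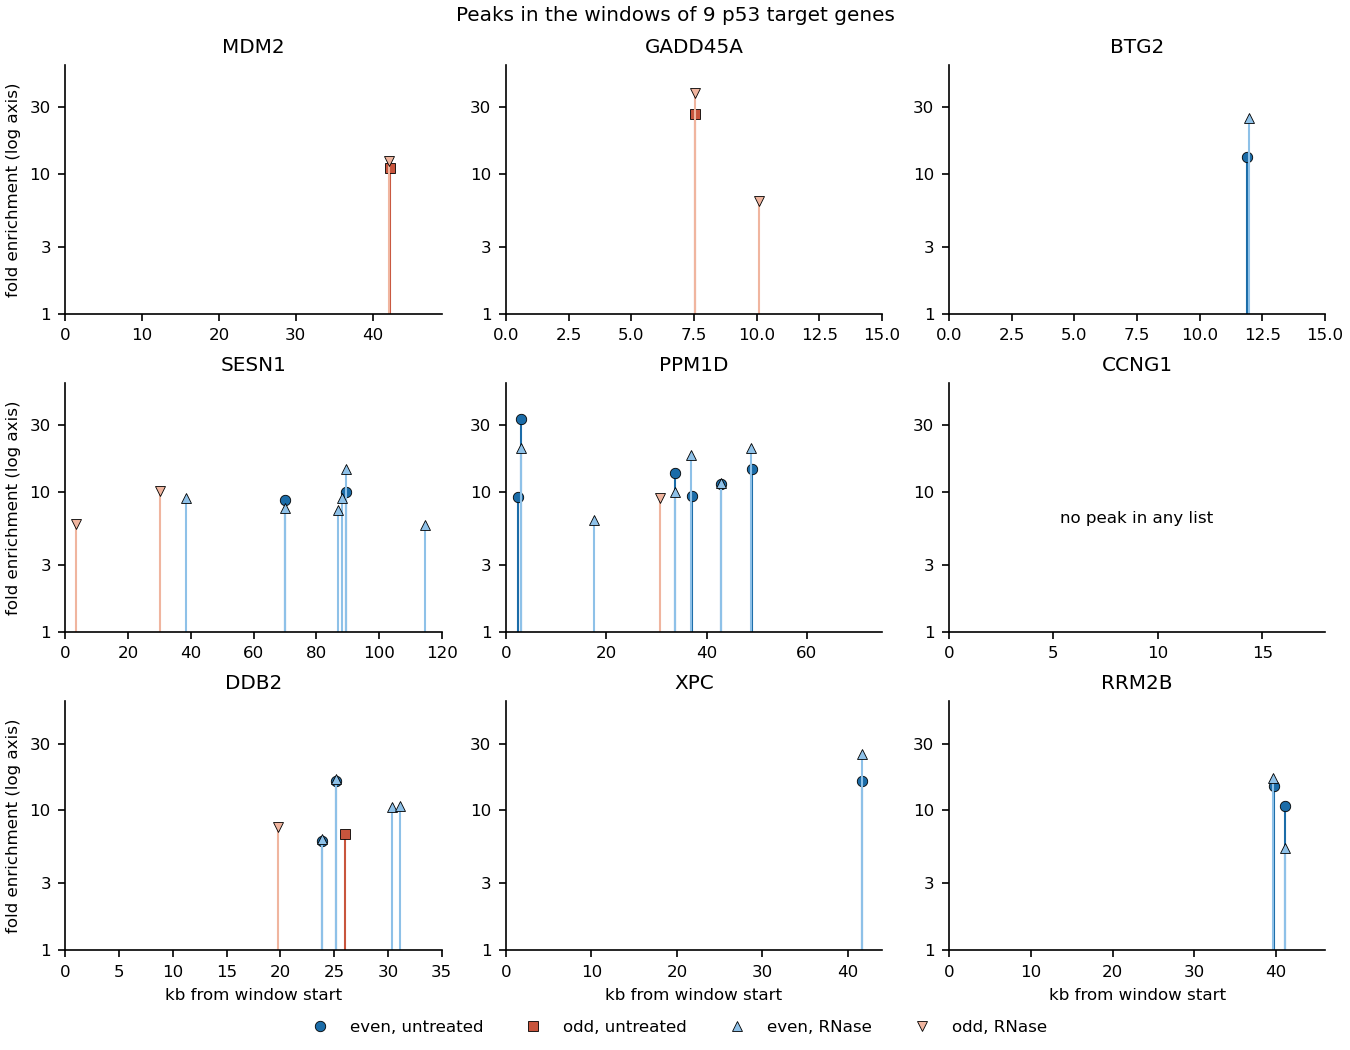
Each panel is the window of 1 gene, with the distance from the window start in kb on the x axis and the authors' fold enrichment at the summit on a log y axis; each marker is a peak, coloured and shaped by probe set and RNase state, and windows differ in width. Blue and red markers never share a position, most untreated markers have an RNase-treated marker of the same probe set at the same place, and CCNG1 has no peak.

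Among the regulators of p53, MDM2 (window at chr12:69196000-69245000) had no even peak in either RNase state and 1 odd peak in each. The odd peak lay at chr12:69238151-69238292 without RNase, with a fold enrichment of 10.98 over the local background, and at chr12:69238011-69238315 with RNase, with a fold of 12.4. Fold enrichments are the authors' values at the summit, made within each list, so they do not compare amounts of recovered DNA between lists. The summits were 5 bp apart. The position is near the 3′ end of MDM2; here and below, placements within genes come from general knowledge of hg19 and were not read from an annotation. The gene is 42515 bp long in the GRCh38 table. If the window holds the whole gene at that length, the 4 listed starts lie in its first part, the last of them between 69196852 and 69203338. None of the 4 lists had a peak in the stretch where any of these starts can lie. The peaks of the window began at least 34673 bp beyond it, and the nearest peak outside the window was at least 7124 bp away. The same stretch was empty in 14 or 15 of its 20 shifted positions, depending on the start.

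PPM1D (chr17:58672000-58747000) held more even peaks than any other window without RNase. It had 6 even peaks without and 6 with RNase, no odd peak without and 1 with RNase. Its strongest untreated peak, at chr17:58674869-58675165, had a fold of 33.2, the highest of the 14 untreated even peaks in the 9 windows, and ranked 7020 by p-value among all untreated even peaks. It was present after RNase at chr17:58674891-58675170 with a fold of 20.8 and a summit 4 bp away. From general knowledge it lies upstream of the gene. A weaker untreated even peak beside it, at chr17:58674392-58674557 with a fold of 9.20, had no counterpart after RNase and lay 334 bp from the nearest RNase-treated even peak. The other untreated even peaks had folds between 9.37 and 14.7 and lay in the middle of the window, in the gene body. Each of these 4 had an RNase-treated even counterpart, with folds between 9.96 and 20.8. The single odd peak, found after RNase at chr17:58702665-58702926 with a fold of 9.05, was 2689 bp from the nearest even peak. An even peak at chr17:58689600-58689731 (fold 6.30) was also found after RNase and not without. The 8.91 kb where PPM1D can start, by the reasoning used for MDM2, held both peaks upstream of the gene, and 7 of its 20 shifted positions also had an untreated even peak.

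CCNG1 (chr5:162859000-162877000) had 0 peaks in all 4 lists. The nearest peak lay 3462 bp outside the window in the untreated even list and 3494 bp in the RNase-treated even list. In the odd lists it lay 17756 and 17730 bp away. The current RefSeq gene of 20070 bp is longer than this window of 18001 bp, so the window may miss part of it. Among 20 windows of the same width shifted along the chromosome, 14 also had no untreated even peak and 16 no untreated odd peak, so an empty window of this width was common.

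Of the genes of arrest and stress signalling, GADD45A (chr1:68145000-68160000) had the strongest odd peak of the 9 windows. The untreated odd peak at chr1:68152368-68152699 had a fold of 26.9 and ranked 6047 by p-value in its list. It was present after RNase at chr1:68152362-68152721, with a fold of 37.99 and a summit 19 bp away. From general knowledge of hg19 it lies within GADD45A itself. A second odd peak, at chr1:68155017-68155144 with a fold of 6.38, was found after RNase and not without. Neither even list had a peak in the window. The nearest even peaks were 8046 bp from the untreated odd peak, 745 bp outside the window, in the untreated list, and 21709 bp outside the window after RNase.

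BTG2 (chr1:203269000-203284000) had the opposite pattern, with 1 even peak in each RNase state and no odd peak. The peak at chr1:203280792-203281006 had a fold of 13.2 without RNase and, at chr1:203280807-203281110, a fold of 25.3 with RNase. The summits were 27 bp apart. From general knowledge this position lies past the 3′ end of BTG2.

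SESN1 (chr6:109302000-109422000), the widest window, had 2 untreated even peaks, 6 RNase-treated even peaks, no untreated odd peak and 2 RNase-treated odd peaks. The untreated even peaks lay at chr6:109372009-109372137 (fold 8.73) and chr6:109391552-109391704 (fold 9.998). Both were found after RNase, with folds of 7.65 and 14.6 and summits 2 and 16 bp away. The 4 even peaks found after RNase alone had folds between 5.81 and 9.04. One of them, at chr6:109416516-109416647 with a fold of 5.81, fell in the 9.46 kb where the longest transcript can start, by the same reasoning as for MDM2. No untreated peak of either set lay there, and 5 of the 20 shifted positions of that stretch had an untreated even peak. The other listed starts can lie between 109326679 and 109336706, where the only peak was an RNase-treated odd one at chr6:109332125-109332268 (fold 10.1). For each of these starts, 6 of 20 shifted positions had an untreated even peak, and 12 or 10 had no peak, depending on the start. The other RNase-treated odd peak lay at chr6:109305449-109305576 (fold 5.90).

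Among the repair genes, DDB2 (chr11:47231000-47266000) was the window where untreated peaks of both probe sets occurred, at separate positions. It had 2 untreated even peaks, 1 untreated odd peak, 4 RNase-treated even peaks and 1 RNase-treated odd peak. The stronger even peak, at chr11:47256034-47256252, had a fold of 16.2, and its RNase-treated counterpart at chr11:47256028-47256239 had a fold of 16.7. The weaker even peak at chr11:47254847-47254973 (fold 5.996) also had a counterpart after RNase (fold 6.22). The untreated odd peak at chr11:47256861-47257078 had a fold of 6.73 and no RNase-treated counterpart, the nearest RNase-treated odd peak being 5979 bp away. It lay 609 bp from the stronger even peak, the shortest distance between an even and an odd peak in the 9 windows. The RNase-treated odd peak was elsewhere, at chr11:47250742-47250882 (fold 7.61). A pair of RNase-treated even peaks near the window end, at chr11:47261290-47261549 (fold 10.6) and chr11:47262060-47262202 (fold 10.7), had no untreated counterpart. From general knowledge these lie past DDB2 in the neighbouring gene ACP2. The listed starts of DDB2 can lie between 47231000 and 47241757 if the window holds the whole gene, and no list had a peak there. The nearest peak inside the window was at least 8985 bp beyond, and the nearest outside it at least 1656 bp away. This stretch was empty in 12 or 13 of its 20 shifted positions, depending on the start.

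XPC (chr3:14181000-14225000) had 1 even peak in each RNase state and no odd peak. It lay at chr3:14222542-14222714 with a fold of 16.3 without RNase, and at chr3:14222566-14222804 with a fold of 25.3 after RNase. The summits were 36 bp apart. This is near the window end, and from general knowledge it lies upstream of XPC in the neighbouring gene LSM3. It fell in the 10.5 kb where XPC can start, and 11 of the 20 shifted positions of that stretch had an untreated even peak as well. The nearest odd peaks were 18990 bp (untreated) and 17996 bp (RNase) outside the window.

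RRM2B (chr8:103211000-103257000) had 2 even peaks in each RNase state and no odd peak. The first, at chr8:103250538-103250823, had a fold of 15.02, and its RNase-treated counterpart at chr8:103250551-103250770 had a fold of 17.03. The second, at chr8:103251943-103252231, had a fold of 10.8 without RNase and, at chr8:103252006-103252137, 5.36 with RNase. From general knowledge the pair lies around the 5′ end of the gene. The nearest untreated odd peak lay 128135 bp outside the window, the farthest of the 9 genes.

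The study's design asks of a contact of DINO that both probe sets recover it. None of the 9 windows held a region of both sets, without RNase or with it. A count of 0 of 9 windows allows a share of up to 33.3%, by an approximate 95% limit of 3 divided by the number. That limit is rough for so few windows and takes them as alike, though they differ in width. Such regions were also rare in shifted windows. Each window was moved by 0.2 to 2 Mb in steps of 0.2 Mb to both sides, which gave 20 windows per gene and 180 in all. Of these, 3 (1.67%) held an untreated region of both sets and 8 (4.44%) an RNase-treated one. A set of 9 shifted windows thus held 0.15 untreated and 0.45 RNase-treated regions on average, so that a count of 0 at the genes is near this background. Regions of both sets without any RNase-treated peak numbered 0 in the gene windows and 0 in the shifted windows (0.0%). For single peaks, 0 of 14 untreated even peaks overlapped an odd peak of either RNase state. By the same approximate limit this allows a share of up to 21.4%. The 3 untreated odd peaks set no useful limit.

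Next, the number of peaks was set beside the shifted windows. The 6 genes with an untreated even peak were 6 of 9, where 71.1% of the shifted windows had one. The 3 of 9 genes with an untreated odd peak stood beside 43.9%. After RNase the 6 of 9 genes with an even peak stood beside 73.3% and the 5 of 9 with an odd peak beside 51.7%. In each list the share of genes with a peak was thus close to or below that of the shifted windows, except in the RNase-treated odd list, where it was slightly above. The density was 33.6 untreated even peaks per Mb in the gene windows against 39.1 in the shifted windows, a ratio of 0.859 (exact Poisson 95% interval 0.470 to 1.44). For untreated odd peaks it was 7.19 against 15.6 per Mb, a ratio of 0.462 (0.0952 to 1.35). After RNase the ratio was 1.11 for even peaks (0.681 to 1.72) and 0.757 for odd peaks (0.304 to 1.56). All 4 intervals, which cover counting error only, include 1. More peaks at these 9 genes than in their neighbourhood were therefore not detectable in any list.

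None of the 9 windows had a number of peaks outside the range of its 20 shifted windows in any list. The following cases were chosen after their values were seen. PPM1D had 6 untreated even peaks against a mean of 3 in its 20 shifted windows, of which 18 had fewer and 2 had at least as many. MDM2 had 0 even peaks in both RNase states. Its 20 shifted windows had a mean of 1.65 untreated even peaks, and 3 of them were also empty. With RNase-treated even peaks the mean was 2.3, and 1 shifted window was empty. XPC had 1 untreated even peak against a mean of 3.45, and 17 of 20 shifted windows had at least as many. GADD45A had 1 untreated odd peak against a mean of 0.200, and none of the 4 shifted windows with an odd peak reached its fold of 26.9. After RNase it had 2 odd peaks against a mean of 0.250, and 1 shifted window had as many and a higher fold. DDB2 had 4 RNase-treated even peaks against a mean of 1.2, and 1 of 20 shifted windows had as many.

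**Figure D2:**
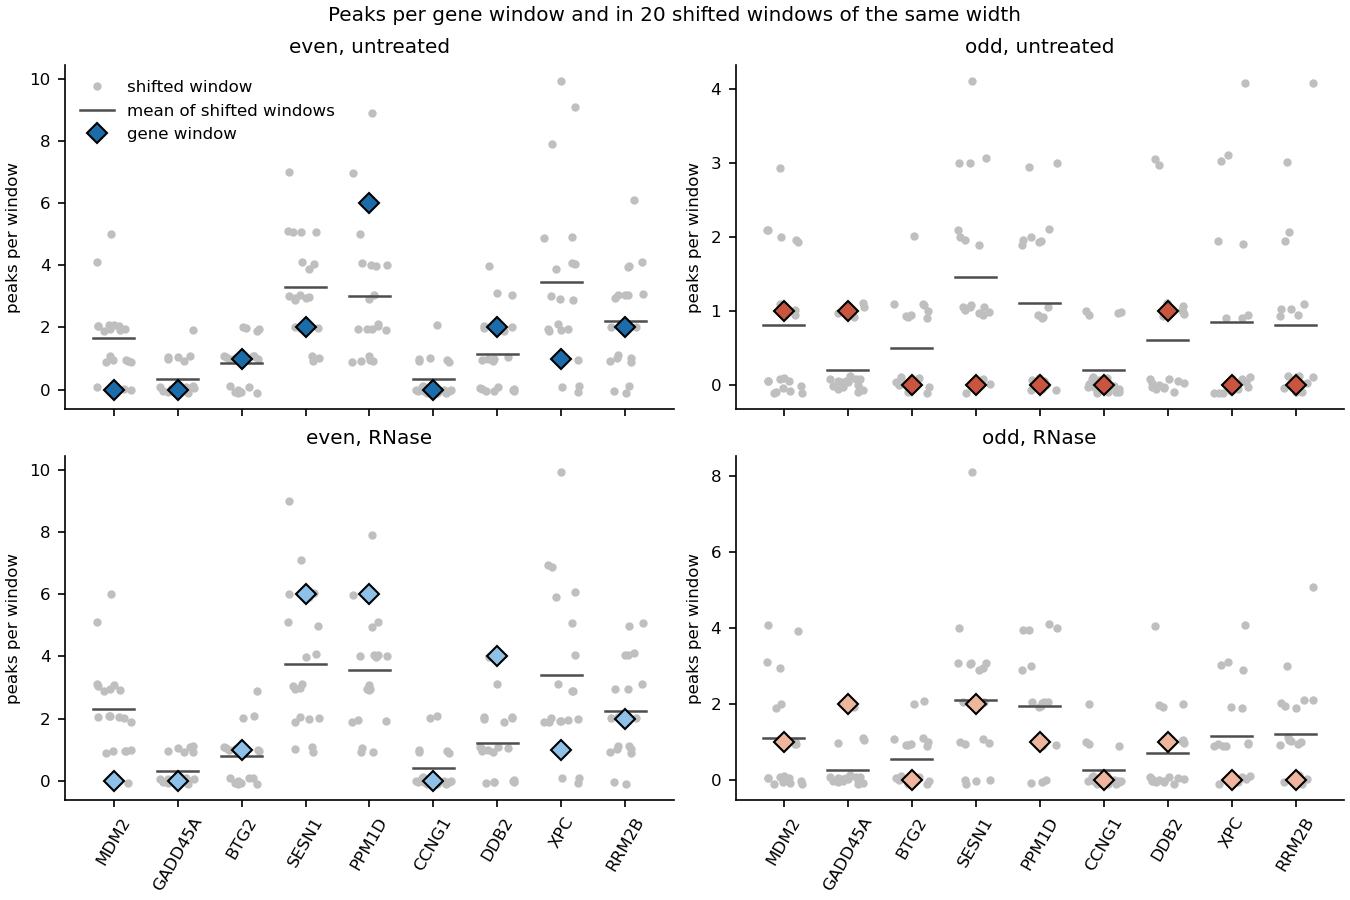
Each panel is a peak list and shows the number of peaks per window on the y axis for each gene on the x axis; diamonds are the gene windows, grey points the 20 shifted windows of the same width (moved slightly apart for display) and bars their means. The diamonds lie within the range of their shifted windows in every list, with PPM1D at 6 even peaks and MDM2 at 0.

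The positions recovered without RNase were mostly recovered with it. RNase-treated counterparts from the same set existed for 13 of the 14 untreated even peaks, which is 92.9% (Wilson 95% interval 68.5 to 98.7) against 80.9% of all untreated even peaks. The exception was the weaker PPM1D peak upstream of the gene. Of the 3 untreated odd peaks, those of MDM2 and GADD45A overlapped an RNase-treated odd peak and that of DDB2 did not, which is 66.7% (20.8 to 93.9) against 91.6% of the whole list. In reverse, 13 of 20 RNase-treated even peaks had an untreated counterpart (65.0%, interval 43.3 to 81.9, against 73.5% of the list). Of the RNase-treated odd peaks, 2 of 7 had one (28.6%, interval 8.22 to 64.1, against 55.2%). In each direction the interval around the share at the genes included that of the whole list. The intervals cover counting error only and take peaks of 1 library as independent. With so few peaks they are wide, so this inclusion does not show that the shares are alike. The 2 untreated peaks without a counterpart were weak, with folds of 9.20 (PPM1D, even) and 6.73 (DDB2, odd), and neither was seen by the other probe set.

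Peaks with a counterpart were found at nearly the same base. The summits of the 13 even pairs lay between 1 and 36 bp apart, with a median of 8 bp, and the median over all even pairs was 20 bp. The RNase-treated list gave the higher fold in 9 of the 13 even pairs and in both odd pairs. Over all pairs it did so in 72.4% of even and 91.7% of odd cases, near the shares at the genes. The lower folds after RNase were those of the PPM1D peak upstream of the gene, another PPM1D peak, the first SESN1 peak and the second RRM2B peak.

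**Figure D3:**
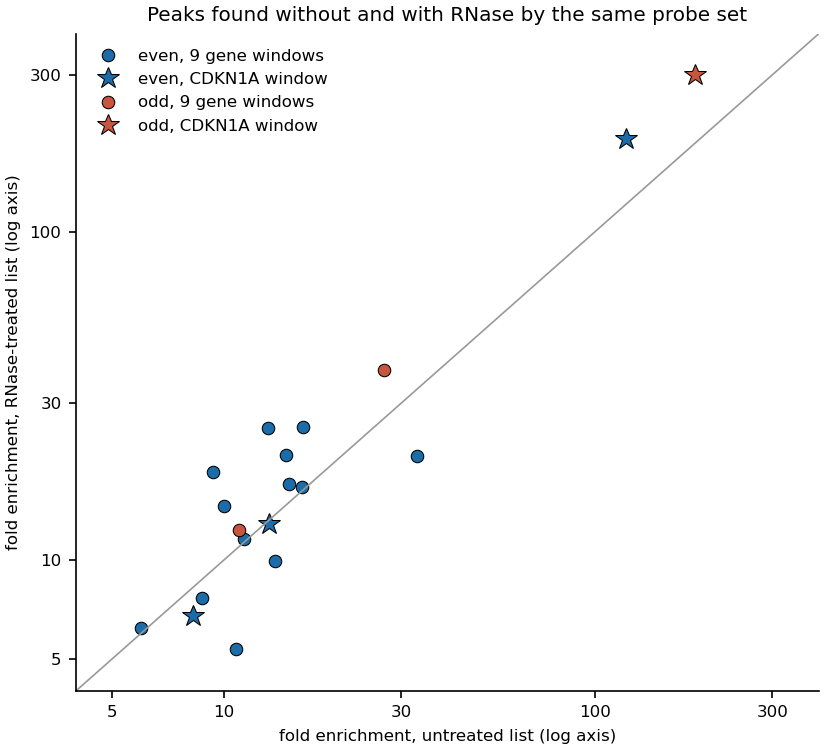
The fold enrichment of each untreated peak is on the x axis and that of its RNase-treated counterpart from the same probe set on the y axis, both on log axes, with the line of equal values; circles are the 9 gene windows and stars the CDKN1A window, blue for even and red for odd. The circles lie between 5.36 and 37.99 on both axes, and the main CDKN1A peak lies far above them in both probe sets.

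The peaks of the 9 genes had ordinary folds. Their median fold was 12.3 in the untreated even list, where all peaks had a median of 10.9, and 10.98 in the untreated odd list, against 10.2. After RNase it was 10.6 for even peaks (list median 11.8) and 9.05 for odd peaks (list median 10.96). Widths were 127 to 297 bp for the untreated even peaks, with a median of 180 bp against 186 bp in the list. The 3 untreated odd peaks were 142 to 332 bp wide, with a median of 218 bp against 171 bp. After RNase the median width was 170 bp for even peaks (list median 192 bp) and 144 bp for odd peaks (list median 173 bp). In the untreated lists 10878 even peaks exceeded the strongest gene peak, that of PPM1D, and 5869 odd peaks exceeded that of GADD45A.

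The window of CDKN1A was set separately, from general knowledge of hg19 with a flank of a few kb, as a target with known recovery. It gave a contrasting case at the locus of DINO. Probes that pair with DINO should also match the DNA there, but probe sequences were not examined. Whether such pairing adds to the recovery was not tested. The CDKN1A window held 4 untreated even and 4 untreated odd peaks in 23 kb, and 3 untreated regions of both probe sets. Its main peak had folds of 121 (even) and 186 (odd) without RNase, and 191 and 300.1 with RNase. The strongest peaks of the 9 other p53 targets, 33.2 at PPM1D and 26.9 at GADD45A in the untreated lists, were each from a single set. Of the CDKN1A regions, 1 had no RNase-treated peak, and its nearest edge lay 744 bp from the main RNase-treated peak. In the whole series 15 of 1292 untreated regions of both sets were of this kind. The 9 gene windows and their 180 shifted windows held 0, so the absence at the genes is near the background.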

How the data were processed

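The members and windows were chosen with earlier results of these data known. Each deposited list gives, per peak, a score, a fold enrichment (a linear ratio), a −log10 p-value and a −log10 q-value at the summit, all computed by the authors for each library alone. Bowtie, MACS2 and hg19 appear in the submitters' processing notes. The sources used here give no version, threshold or control library. The lowest −log10 q-value was 2.01. Lists were read by the narrowPeak layout, with 1-based coordinates, on chromosomes 1 to 22 and X, with pandas 2.3.3, numpy 2.4.6, scipy 1.17.1 and matplotlib 3.10.9 (Python 3.11.15). A peak belonged to a window, or matched another peak, with at least 1 bp shared. Regions of both probe sets join even and odd peaks that overlap. Counting was checked on simulated lists. All 9 genes were described, with their strongest peaks and the untreated peaks without an RNase-treated counterpart. GRCh38.p14 served for names, lengths and promoter sequences, and no hg19 sequence was used here.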

Additional observations from a re-analysis of the deposited data

How the results depend on the processing

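Of 160 recomputed values, 152 stayed inside the 95% interval of the reported value or, for counts, moved by at most 1.5 times. Regions of both probe sets were 0 in both RNase states in each of the 7 alternatives run on them. Stricter peak thresholds, shorter lists, narrower windows and a stricter overlap rule can only remove overlaps, so their 0 was fixed in advance. Summits within 200 bp could add none either, since even and odd peaks in the windows lay at least 609 bp apart. Only windows widened by 10 kb could have given another value. Regions of both sets without any RNase-treated peak were likewise 0 in every alternative, and could differ from 0 only where a region of both sets existed. All these zeros are counted among the 152 values. The density ratio ranged from 0.602 to 1.17 (untreated even), 0.317 to 0.594 (untreated odd), 0.926 to 1.31 (RNase even) and 0.551 to 0.897 (RNase odd). With the 34695 strongest peaks of every list, fewer by construction, the windows held 3 untreated even peaks in 3 windows, 6 RNase-treated even and 4 RNase-treated odd peaks. Wider windows held 27 untreated even peaks in 9 windows, with a density ratio of 1.17. The share of untreated peaks with an RNase-treated counterpart was 100% for even peaks with equal numbers and in windows narrowed by 5 kb, and 100% for odd peaks at a −log10 q-value threshold of 10, where fewer peaks were left. For even peaks it fell to 76.9% at that threshold and to 85.2% in windows widened by 10 kb. Where matched peaks had to share 50% of each, it fell to 85.7% for even and 33.3% for odd peaks. These lower shares stayed inside the wide intervals of the reported values, so they are counted among the 152. No paired analysis was possible because each condition had 1 library, the labels give no replicate numbers and no result comes from a test. Read depth is unknown and few peaks fell in the windows, which limits every share.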

Other observations

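The regions of both probe sets nearest to the 9 windows lay outside them by 84.4 to 6141 kb without RNase (median 1440 kb) and by 64.2 to 2739 kb with RNase (median 385 kb). The whole series held 1292 such regions without RNase and 1866 with it. Distances from shifted windows were not computed, so these values do not show whether the genes lie near or far from such regions. Nearest to XPC was chr3:14309382-14309963, with untreated folds of 7.50 (even) and 43.5 (odd), found after RNase at chr3:14309297-14309963 with folds of 7.63 and 85.9. Nearest to DDB2, 385 kb away, was chr11:47650804-47651306, with untreated folds of 50.8 (even) and 64.7 (odd), found after RNase at chr11:47650798-47651358 with folds of 51.9 and 120.4. These 2 regions were chosen after their values were seen, and the genes there were not analysed here.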
